A study of Mus musculus with 3 samples.

Results

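Immediate-early genes are the genes that cells transcribe soon after a stimulus without needing new protein first. The 35 genes examined here were chosen by name from known immediate-early genes. Every probe on the array that is not a control and whose gene name is one of these symbols was taken. Of the 35 genes, 33 had a probe, 48 probes in all, out of 27957 gene names and 41169 probes on the array. Jund and Dusp5 had no probe under these names. A probe named Jund1, which carries an accession that RefSeq gives to Jund, lay outside the rule and had log2 ratios of -0.12 ± 0.20 (swimming against nonswimming) and 0.20 ± 0.20 (Chlorella against normal food in swimming mice). Older symbols are used on the array for 2 genes: Cyr61 is now Ccn1 and Ctgf is now Ccn2.

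The study compared skeletal muscle RNA of male mice in 3 groups after 14 days: nonswimming mice on normal food, swimming mice on normal food, and swimming mice fed a diet with 0.5% powder of Chlorella, a green alga. The mice were 6 weeks old per the labels. The strain, the muscle taken, the swimming protocol and the time between the last swim and sampling were not stated in the labels. RNA of 10 mice was pooled in each group and hybridised to 1 single-colour Agilent array, so each value below is 1 measurement of 1 pool. No Chlorella group without swimming was among the samples, so the Chlorella array can be set against swimming on normal food, or against nonswimming with food and swimming both different.

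Serum, stretch, nerve activity and hormones reach these genes through the MAP kinases and the transcription factors SRF and CREB, which are already present in resting cells. Many of the products are themselves transcription factors: Fos and Jun proteins pair to form AP-1, and the Egr and Klf families bind GC-rich DNA through zinc fingers. Others end the response, such as the Dusp phosphatases that inactivate MAP kinases and Zfp36, which promotes the decay of short-lived messenger RNAs. In muscle, contraction is a known inducer of Fos, Jun and Egr1, and the response is brief, so the time of sampling bears on any measured level.

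All 15 skeletal muscle markers, among them Acta1, Ckm and Myh4, were well above background on each array, so the label of the tissue and its markers match. Between 23448 and 24857 probes per array were well above background, the scanner software's call that a spot is brighter than its local background, and no spot was saturated. Processed signals are in intensity units. Log2 ratios were taken after dividing each array by the 75th percentile of its probes. This was 285.9 units on the nonswimming, 295.0 on the swimming and 237.8 on the Chlorella array. Ratios of the Chlorella array over another therefore lie above the ratio of the signals printed, and can differ from it in sign. Egr2 signals of 269 with swimming and 261 with swimming and Chlorella, for example, gave a log2 ratio of 0.27. Each log2 ratio carries as its ± the error that the scanning software reports for the compared spots, close to 0.20 for most genes. It is technical and holds no difference between mice or pools. With 1 array per group no test between groups was possible, and a gene was counted where its arrays were 2-fold or more apart and both were well above background. Each gene is given by its brightest probe, and other probes are named where they differ. A level cannot be compared between probes, only between arrays for 1 probe. In pooled whole tissue, fewer cells of a type and less RNA per cell cannot be told apart.

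Fosl1 was not well above background on any array, and the other 32 genes were well above it on all 3 (97.0% of the members with a probe, against 55.0% of all genes). In swimming against nonswimming on normal food, 6 of these 32 genes reached 2-fold or more above on the swimming array and 1 reached 2-fold below. Across all 15764 genes measured on both arrays, 5.14% were higher and 1.08% lower by that size. The 6 were Junb, Egr1, Dusp2, Dusp4, Ier2 and Zfp36, and the lower gene was Fosb. The median of the 32 log2 ratios was 0.03, against -0.04 for all genes, with 18 ratios above 0 (56.2%, against 44.9% of all genes) and 14 below. Centring the arrays on their medians moved the median of all genes to -0.19 and that of the members to -0.12. With that centring 5 members were higher and 2 lower, against 4.28% and 1.79% of all genes.

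In Chlorella against normal food in swimming mice, 9 of the 32 genes reached 2-fold above on the Chlorella array and 2 reached 2-fold below, against 1.40% higher and 4.86% lower among 15611 genes. The 9 were Fosl2, Junb, Maff, Klf4, Zfp36, Ctgf, Gadd45b, Gadd45g and Arc, and the 2 lower genes were Egr1 and Dusp4. The median of the members was 0.41, against 0.08 for all genes, and 22 of 32 ratios were above 0 (68.8%, against 9363 of 15611 for all genes). Relatives of the same families outside the list had 34 of 49 above 0 (69.4%), with a median of 0.31. The share above 0 was thus no mark of the members. When the limit nearest 0 of the 95% interval of the scanner error also had to reach 2-fold, 5 genes were higher (Junb, Maff, Klf4, Gadd45g and Arc) and 1 was lower (Dusp4), against 0.416% higher and 2.82% lower among all genes, so the lower share was near that of all genes. Under the same demand, the first comparison had Dusp4 as higher and Fosb as lower, 1 of 32 each, against 3.19% and 0.349% of all genes. The count of higher genes there was at the share of all genes.

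In Chlorella with swimming against nonswimming on normal food, 9 of 32 genes reached 2-fold above (Fosl2, Junb, Maff, Dusp2, Zfp36, Btg2, Gadd45b, Gadd45g and Arc) and Fosb alone reached 2-fold below, against 2.10% and 1.48% of 15440 genes. This comparison shares an array with each of the others, so its counts are no separate evidence. At the scanner error limit 4 genes were higher (Junb, Maff, Zfp36 and Gadd45b) and Fosb lower, against 0.725% and 0.363% of all genes. Set over the 3 arrays together, the Chlorella array was the highest for 21 of the 32 genes, the swimming array on normal food for 7 and the nonswimming array for 4. For all genes these shares were 42.4%, 25.2% and 32.4%. Fosl2, Junb, Maff, Zfp36, Gadd45b, Gadd45g and Arc were at least 2-fold above both other arrays on the Chlorella array, 7 of 32 against 0.599% of all genes. Egr1 and Dusp4 were at least 2-fold above both others on the swimming array with normal food, 2 of 32 against 3.33%, and Fosb was alone in being so on the nonswimming array, against 0.319%. Junb, Dusp2 and Zfp36 were at least 2-fold below both others on the nonswimming array, 3 of 32 against 0.820%. Of these, Dusp2 lay at the 2-fold limit in Chlorella with swimming against nonswimming (1.01 ± 0.20). The second Zfp36 probe fell short of 2-fold for swimming (0.88 ± 0.22). No member was that far below both others on the swimming array (0.195% of all genes) or on the Chlorella array (0.644%).

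**Figure D1:**
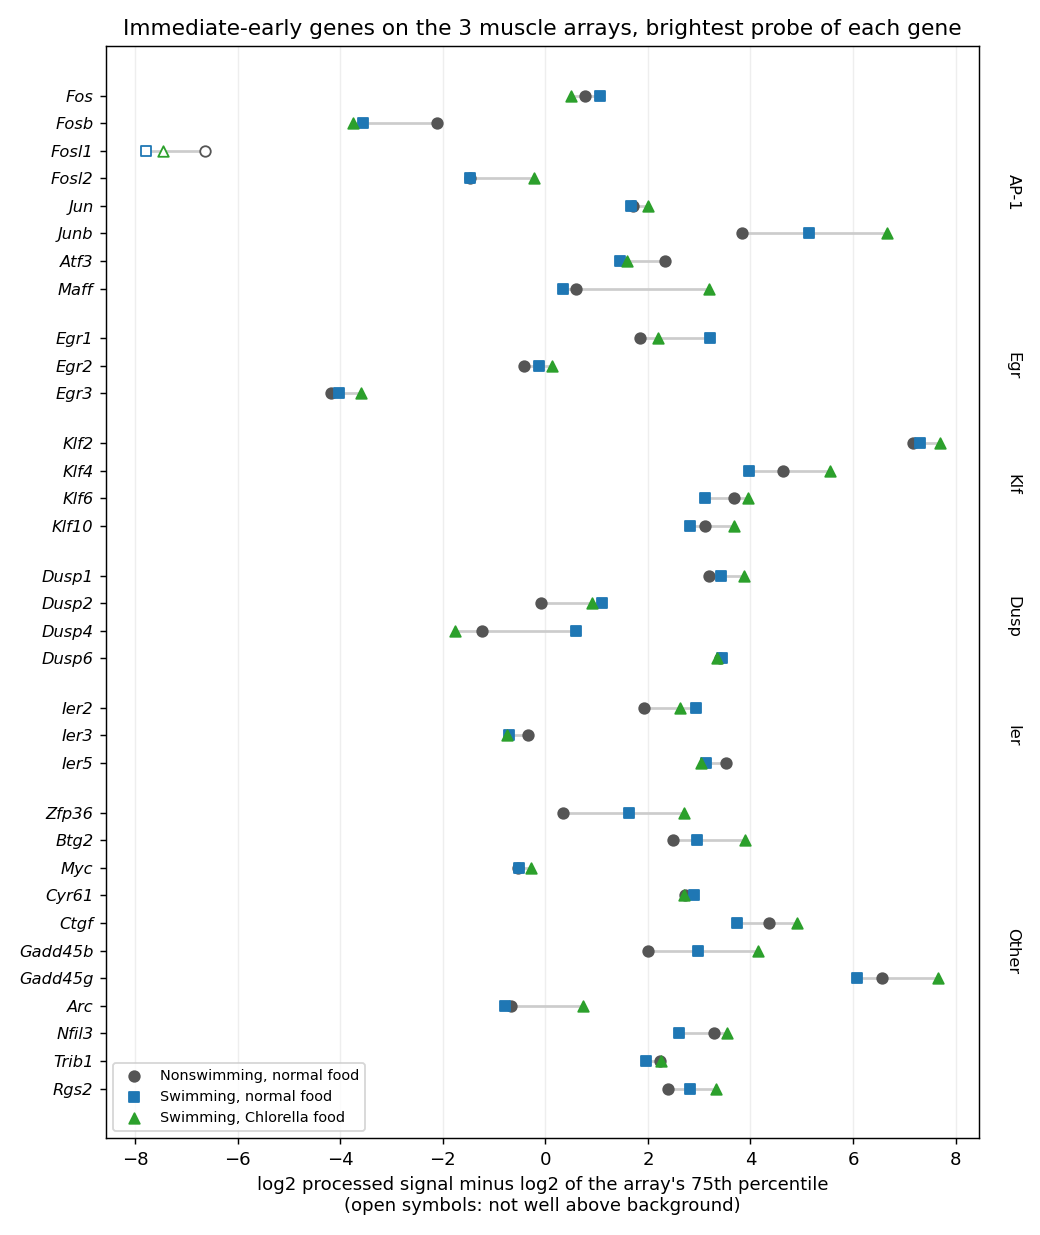
Level of each of the 33 genes with a probe on the 3 arrays, as log2 of the processed signal minus log2 of the array's 75th percentile (x axis), by the brightest probe, with genes grouped on the y axis as AP-1, Egr, Klf, Dusp, Ier and other genes. Each point is 1 array, and values are comparable along a row, not between rows. The green triangles of Maff, Junb, Zfp36, Gadd45b and Arc lie at the right end of their rows, and in the rows of Egr1 and Dusp4 the blue squares of swimming on normal food do. The open symbols of Fosl1 were not well above background.

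Of the AP-1 genes, Junb and Maff differed most between the arrays, with a range of 2.82 and 2.86 on the log2 scale. JunB is the Jun protein often seen as an antagonist of c-Jun in proliferation, and it is also known for maintaining muscle mass. The Junb signal was 4093 without swimming, 10484 with swimming and 24086 with swimming and Chlorella. The groups stood in that order, with each step larger than the scanner error: the log2 ratio was 1.31 ± 0.20 for swimming and a further 1.51 ± 0.20 for Chlorella. From the nonswimming to the Chlorella array this was 7.08-fold. A second Junb probe gave 2637, 6628 and 15292, with ratios of 1.28 and 1.52. The probes lie on chromosome 8 (83563097 to 83563156 and 83563059 to 83563118, as the scanner files place them on a build that the sources used here do not name) and share 22 bases, so they are not independent.

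By the brightest probe of each gene, Maff had the largest log2 ratio of any member. It encodes a small Maf protein, a basic leucine zipper factor without an activation domain of its own. Its signal was 433 without swimming, 374 with swimming and 2178 with swimming and Chlorella. The 2 arrays with normal food were close to each other (-0.26 ± 0.20), and the Chlorella array stood apart from both, at 2.85 ± 0.20 (7.22-fold) over swimming and 2.60 ± 0.20 (6.05-fold) over nonswimming. The Maff probe is placed by the same files at chromosome 15, 79441964 to 79442023. Fosl2, which encodes the Fos protein Fra-2, was also highest on the Chlorella array: 104, 107 and 202, with ratios of 0.01 ± 0.21 and 1.22 ± 0.21. Its dimmer probe (10.4, 4.88 and 13.2) was not well above background on the swimming array. By the lowest signal that was well above background on that array, Chlorella was at least 2.83-fold and nonswimming at least 1.86-fold above swimming. Chlorella was 0.60 ± 0.32 over nonswimming on this probe, short of 2-fold, so being 2-fold above both others rests on the brighter Fosl2 probe.

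Fos itself did not follow Junb and Maff. The Fos probe was spotted repeatedly, with 8 to 10 usable spots per array, and its mean signal was 491 without swimming, 614 with swimming and 339 with swimming and Chlorella. The Chlorella array was the lowest. The ratios were 0.28 ± 0.20 for swimming and -0.55 ± 0.20 for Chlorella, both short of 2-fold, while the SD between spots of 1 array was 0.041 to 0.062 on the log2 scale. Jun, also spotted repeatedly, gave 934, 949 and 954, with ratios of -0.02 ± 0.20 and 0.32 ± 0.20. The 3 signals of Jun were nearly equal before each was divided by its array's 75th percentile.

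Fosb and Atf3 were highest on the nonswimming array. Fosb, a Fos relative known from neuronal activity, had signals of 66.1, 25 and 17.7 on the nonswimming, swimming and Chlorella arrays. Both swimming arrays were lower than the nonswimming one and near each other, with a ratio of -1.45 ± 0.22 for swimming and -0.19 ± 0.24 for Chlorella. These signals were dim, and with normexp background correction the swimming ratio was -0.63. Atf3, a stress-induced repressor of the ATF family, had signals of 1443, 811 and 723. Its ratios were -0.88 ± 0.20 and 0.15 ± 0.20, so it was also highest on the nonswimming array, without reaching 2-fold. The Fosl1 probe (2.87, 1.33 and 1.36) gave no level on any array and so no ratio.

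The promoters of 6 genes are shown: 5 of the 21 that were highest on the Chlorella array (Junb, Maff, Zfp36, Btg2 and Gadd45b), and Fos, which was lowest there. The 5 do not stand for all such genes. Btg2 was short of 2-fold over swimming on its brightest probe (0.93). Fosl2 and Gadd45g, at least 2-fold above both other arrays on the Chlorella array, had windows without any match and are not shown. Each is the RefSeq window from 250 bases before to 50 bases after the start of the gene, in build GRCm38.p6, written 5′ to 3′ on the strand of the gene, where 25 of the 35 genes had a window. Capitals mark matches, on either strand, to the CArG box that SRF binds, to the cyclic AMP response element TGACGTCA that CREB binds, and to its core TGACG, which a full element holds on both strands. The windows are chr8:84978699-84978998 (Junb, minus strand), chr15:79347270-79347569 (Maff, plus strand, one of 3 starts, shown for its full element), chr7:28379179-28379478 (Zfp36, minus strand), chr1:134079106-134079405 (Btg2, minus strand), chr10:80929841-80930140 (Gadd45b, plus strand) and chr12:85473640-85473939 (Fos, plus strand).
Junb: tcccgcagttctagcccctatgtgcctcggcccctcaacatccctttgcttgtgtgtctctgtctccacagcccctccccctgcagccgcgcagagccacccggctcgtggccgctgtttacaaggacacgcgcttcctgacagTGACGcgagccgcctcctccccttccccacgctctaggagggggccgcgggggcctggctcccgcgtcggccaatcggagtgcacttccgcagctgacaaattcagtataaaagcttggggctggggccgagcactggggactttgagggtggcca
Maff: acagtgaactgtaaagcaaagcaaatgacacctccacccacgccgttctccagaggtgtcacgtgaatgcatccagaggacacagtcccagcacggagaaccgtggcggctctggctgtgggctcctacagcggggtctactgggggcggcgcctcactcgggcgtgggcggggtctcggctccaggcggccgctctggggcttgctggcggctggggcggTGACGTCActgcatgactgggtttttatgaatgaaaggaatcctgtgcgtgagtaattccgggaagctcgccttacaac
Zfp36: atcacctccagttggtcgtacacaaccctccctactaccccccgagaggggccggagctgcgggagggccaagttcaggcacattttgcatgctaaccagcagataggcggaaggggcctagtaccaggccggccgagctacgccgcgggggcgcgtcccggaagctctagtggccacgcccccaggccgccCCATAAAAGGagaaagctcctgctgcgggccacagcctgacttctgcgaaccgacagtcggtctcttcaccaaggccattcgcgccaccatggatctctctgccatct
Btg2: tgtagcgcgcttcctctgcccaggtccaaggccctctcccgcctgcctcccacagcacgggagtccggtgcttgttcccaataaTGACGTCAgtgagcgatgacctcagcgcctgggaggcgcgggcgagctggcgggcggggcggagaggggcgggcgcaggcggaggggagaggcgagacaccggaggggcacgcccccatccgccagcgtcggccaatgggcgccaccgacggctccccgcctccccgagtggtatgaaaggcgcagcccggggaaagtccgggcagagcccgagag
Gadd45b: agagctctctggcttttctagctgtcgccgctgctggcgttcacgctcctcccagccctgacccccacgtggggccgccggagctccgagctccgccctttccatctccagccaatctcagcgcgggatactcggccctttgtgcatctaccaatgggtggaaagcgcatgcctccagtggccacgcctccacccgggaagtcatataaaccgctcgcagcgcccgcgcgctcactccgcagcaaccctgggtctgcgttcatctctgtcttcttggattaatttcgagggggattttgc
Fos: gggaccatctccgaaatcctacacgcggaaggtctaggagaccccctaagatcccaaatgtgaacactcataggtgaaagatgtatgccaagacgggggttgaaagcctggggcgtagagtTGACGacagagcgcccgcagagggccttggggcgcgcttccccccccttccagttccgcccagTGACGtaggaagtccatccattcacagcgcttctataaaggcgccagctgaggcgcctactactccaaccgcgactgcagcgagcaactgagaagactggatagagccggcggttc

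Maff holds the full TGACGTCA beginning 29 bases before the start, and Btg2 holds it beginning 166 bases before the start. Dusp1 was the third member with it, so 3 of 25 genes had it (12.0%) against 2.03% of all 27025 genes with a window. The CArG box was found in 3 of 25 (Egr2, Dusp5 and Zfp36), against 1.81%. In Zfp36 it begins 58 bases before the start. The Fos window held no CArG box, but sequence outside the windows was not searched. Whether Fos has a CArG box further upstream was therefore not tested. Egr1 was among the genes without a window, so its promoter was not searched. The core TGACG was found in 15 of 25, against 23.0%, among them Junb and Fos, where Fos holds it at 2 places. These letters contain the pair CG, and the members' windows were richer in it, with a median of 21 CG pairs per window against 7 over all windows. Their median GC content was 62.3% against 52.7%. The AP-1 site TGACTCA was in none of the 25 windows, against 5.95% of all genes. A match describes the letters only. No match was found in the Gadd45b window.

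Of the Egr genes, which encode zinc finger factors downstream of SRF, Egr1 was high on the swimming array with normal food. The Egr1 signal was 1025 without swimming, 2749 with swimming and 1094 with swimming and Chlorella. Swimming stood apart from both others: the ratio was 1.38 ± 0.20 (2.60-fold higher) against nonswimming, and Chlorella was -1.02 ± 0.20 against swimming. The latter lies at the 2-fold limit, and it was under 2-fold after median centring (-0.88). Egr2, known from myelinating Schwann cells, had 10 spots per array with mean signals of 214, 269 and 261. Its ratios were 0.28 ± 0.20 and 0.27 ± 0.20, and the SD between spots was 0.034 to 0.045.

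The 2 probes of Egr3, a factor needed for muscle spindles, did not give the same order. The brighter one, which lies 3152 bases further along and has the accession of a cDNA clone, gave 15.8, 18.0 and 19.6, with ratios of 0.15 ± 0.27 and 0.43 ± 0.26. The probe for the RefSeq transcript gave 3.05, 25.4 and 1.81 and was well above background on the swimming array alone. By the lowest signal well above background on the other arrays, swimming was at least 3.82-fold above nonswimming and at least 3.27-fold above Chlorella on this probe. Swimming was highest on this probe, as for Egr1, and not on the brighter one.

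Klf4, Klf6 and Klf10 shared an order, and Klf2 did on 1 of its 2 probes. These Krüppel-like factors regulate differentiation, and Klf2 and Klf4 are known in endothelium. Klf4 had signals of 7056, 4624 and 11217 on the nonswimming, swimming and Chlorella arrays. The swimming array was the lowest and the Chlorella array the highest, with ratios of -0.65 ± 0.20 and 1.59 ± 0.20 (3.01-fold). Klf6 gave 3646, 2567 and 3688, and Klf10, a target of TGF-beta signalling, gave 2486, 2082 and 3048. Their ratios were -0.55 ± 0.20 and 0.83 ± 0.20 for Klf6, and -0.30 ± 0.20 and 0.86 ± 0.20 for Klf10, so both stood in the order of Klf4 without reaching 2-fold. The second probe of Klf6, 2665 bases away, gave -0.54 and 0.94.

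The probes of Klf2 gave ratios of different size. The brighter probe had signals of 41083, 46626 and 49097, with ratios of 0.14 ± 0.20 and 0.39 ± 0.20, both short of 2-fold. The other probe had 7322, 5809 and 11359, with -0.38 ± 0.20 and 1.28 ± 0.20, the order of Klf4 and 2.43-fold higher on the Chlorella array. Neither probe was flagged as saturated. As a group the 4 Klf genes had a median of -0.43 for swimming, with 3 of 4 below 0 and none 2-fold apart, and 0.85 for Chlorella, with 4 of 4 above 0 and 1 at least 2-fold higher. The medians of all genes were -0.04 and 0.08, with 44.9% of ratios above 0 in the former and 9363 of 15611 in the latter. By 2-fold or more, 5.14% of all genes were higher and 1.08% lower for swimming, and 1.40% higher and 4.86% lower for Chlorella. Of 9 endothelial markers, none was 2-fold apart in either comparison, and their medians were -0.27 and 0.28. For swimming 8 of these 9 were below 0, and for Chlorella 8 of 9 were above 0. Of the 15 skeletal muscle markers, 14 were below 0 for swimming and 15 above 0 for Chlorella. The summed level of the endothelial markers was 51.5 on the nonswimming, 43.9 on the swimming and 58.2 on the Chlorella array, in units of the array's 75th percentile. Whether endothelial cells had a part in the Klf order was not tested.

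The Dusp genes encode phosphatases that remove phosphate from MAP kinases, and Dusp4 differed most. Its brighter probe had signals of 121, 448 and 70.2, with the swimming array on normal food above both others. The ratio was 1.84 ± 0.21 (3.58-fold) for swimming and -2.36 ± 0.21 for Chlorella against swimming (5.14-fold lower). The second probe, 2761 bases away, gave 20.4, 166 and 26.4, with ratios of 2.98 ± 0.24 and -2.35 ± 0.22. Both probes put swimming highest by more than 3-fold, while they differ in sign for Chlorella with swimming against nonswimming (-0.52 and 0.63). Dusp2, a nuclear phosphatase known from leukocytes, had signals of 269, 638 and 449. Its ratio was 1.20 ± 0.20 for swimming and -0.20 ± 0.20 for Chlorella, so both swimming arrays were above the nonswimming one.

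Dusp1, the glucocorticoid-inducible phosphatase also called MKP-1, had 2634, 3161 and 3493, with ratios of 0.22 ± 0.20 and 0.45 ± 0.20. Dusp6, a phosphatase of ERK, had 3038, 3229 and 2419, with ratios of 0.04 ± 0.20 and -0.11 ± 0.20. Dusp6 was nearly level over the arrays, while Dusp1 was 0.67 ± 0.20 (1.59-fold) higher in Chlorella with swimming against nonswimming. The 4 Dusp genes had a median of 0.71 for swimming, with 2 of 4 at least 2-fold higher. For Chlorella their median was -0.15, with 1 of 4 at least 2-fold lower. For all genes the medians were -0.04 and 0.08, with 5.14% higher by that size in the former and 4.86% lower in the latter.

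Of the Ier genes, named for their rapid response, Ier2 had signals of 1085, 2253 and 1466. Its ratio of 1.01 ± 0.20 in swimming lay just past 2-fold, as Gadd45b (0.97 ± 0.20) lay just short of it, and a second, dim Ier2 probe (19.4, 26.4 and 21.8) gave 0.40 ± 0.26. The Chlorella ratio was -0.31 ± 0.20 on the brighter probe and 0.04 ± 0.25 on the dim one. Ier3, a regulator of cell death, had 227, 181 and 141, and Ier5 had 3313, 2606 and 1938. Both had their highest signal on the nonswimming array, with swimming ratios of -0.37 ± 0.20 and -0.39 ± 0.20 and Chlorella ratios of -0.05 ± 0.21 and -0.12 ± 0.20. No Ier gene was 2-fold apart in Chlorella against normal food, and all 3 ratios lay below 0, with a median of -0.12. For all genes that median was 0.08, with 1.40% higher and 4.86% lower by 2-fold or more.

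**Figure D2:**
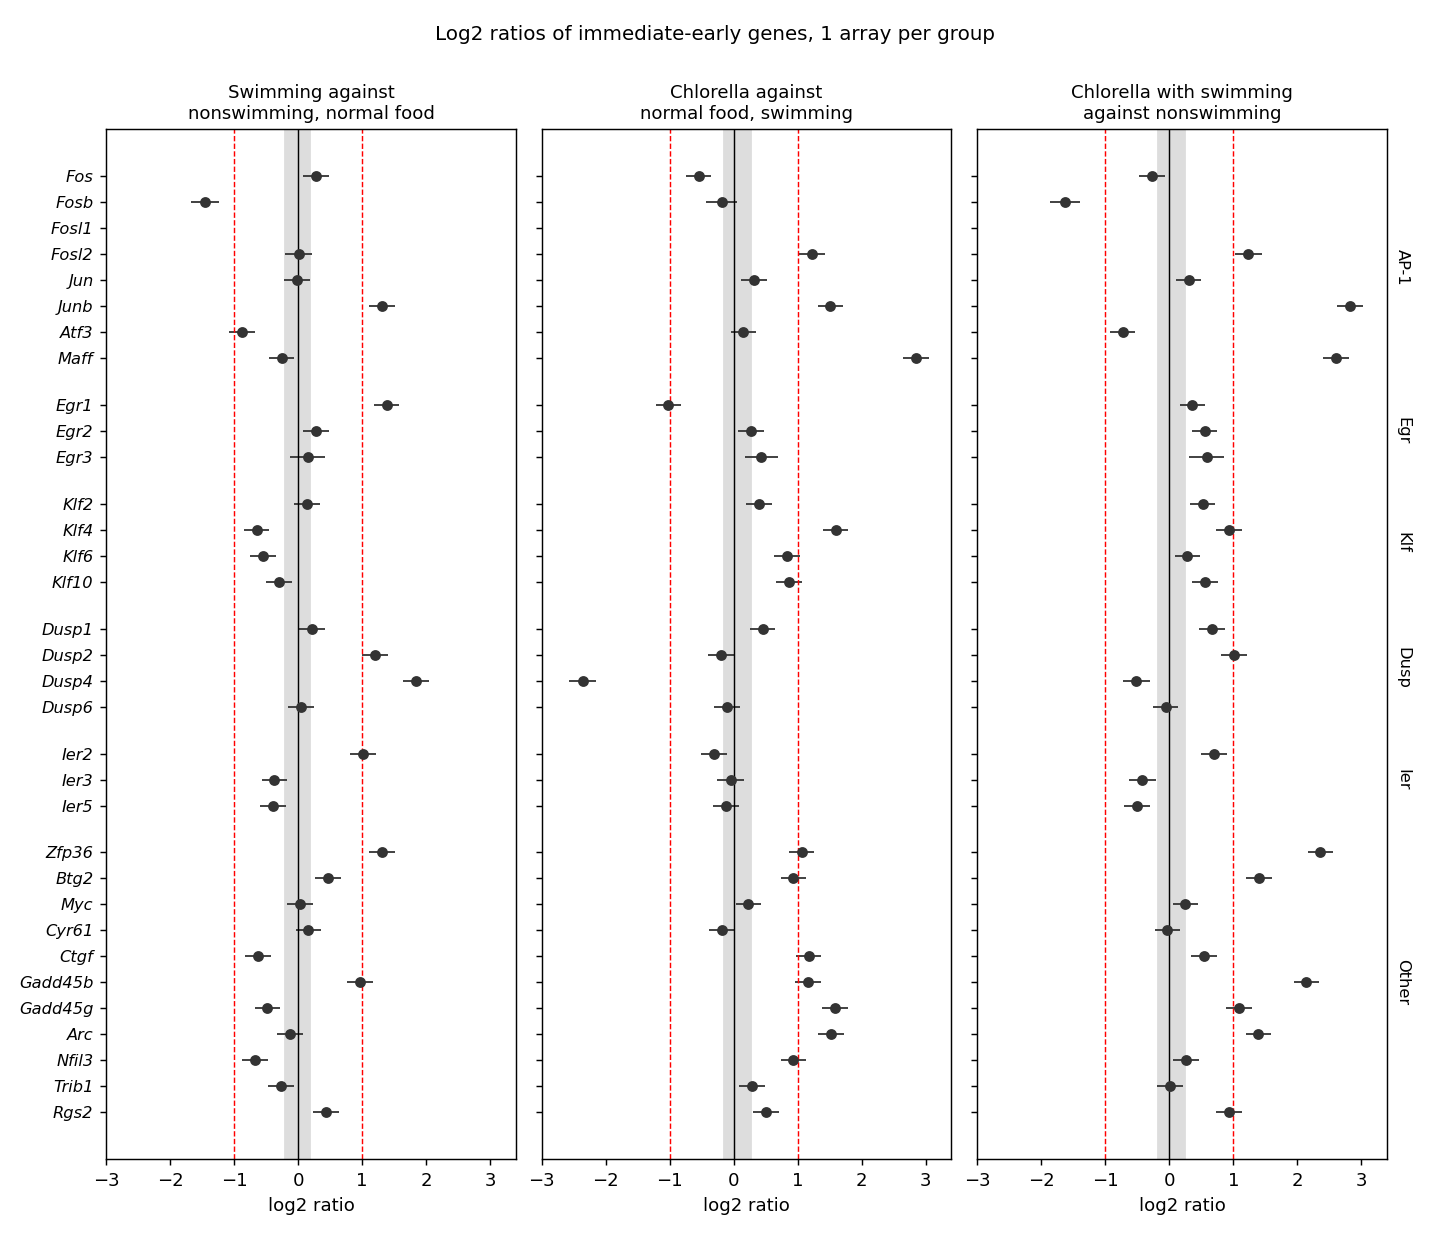
Log2 ratio of each gene by its brightest probe (x axis, y axis grouped as AP-1, Egr, Klf, Dusp, Ier and other genes) in swimming against nonswimming, Chlorella against normal food in swimming mice, and Chlorella with swimming against nonswimming, with bars for the scanner error of 1 array per group. Dashed lines mark 2-fold and the grey band holds the middle 50% of all genes. The Klf genes lie left of 0 in the first panel except Klf2 (0.14) and right of it in the second, while Dusp4 and Egr1 do the opposite.

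Among the genes outside these families, Zfp36 and Gadd45b had the order of Junb. Zfp36, the messenger RNA decay factor tristetraprolin, had signals of 361, 921 and 1545 on the nonswimming, swimming and Chlorella arrays. Each array was above the one before, with ratios of 1.31 ± 0.20 and 1.06 ± 0.20, and the Chlorella array was 5.14-fold above the nonswimming one. The second Zfp36 probe (30.4, 57.8 and 98.3) gave 0.88 ± 0.22 and 1.08 ± 0.21. Gadd45b, a stress sensor that binds MAP kinase kinases, had 1148, 2327 and 4204, with ratios of 0.97 ± 0.20 and 1.16 ± 0.20. Its second probe gave 0.88 and 1.14, and the Chlorella array was 4.40-fold above the nonswimming one on the brighter probe.

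Btg2, an antiproliferative factor induced by p53, stood in the same order with a size that depends on the probe. The brightest probe gave 1606, 2294 and 3517, with ratios of 0.47 ± 0.20 and 0.93 ± 0.20, short of 2-fold. The other 2 probes, nearer the start of the gene, gave 206, 348 and 848, and 339, 617 and 1599. Their Chlorella ratios were 1.60 ± 0.20 and 1.68 ± 0.20, 3.02-fold and 3.21-fold higher. All 3 probes gave at least 2-fold for Chlorella with swimming against nonswimming, from 1.40 to 2.50.

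Gadd45g, Arc and Ctgf were high on the Chlorella array without being higher with swimming. Gadd45g, a relative of Gadd45b, had signals of 27089, 20002 and 48107, with ratios of -0.48 ± 0.20 and 1.58 ± 0.20 (2.98-fold). Arc, best known from active neurons, had 181, 171 and 395, with -0.13 ± 0.20 and 1.52 ± 0.20 (2.86-fold). Ctgf, a matrix-associated growth factor, had 5869, 3910.3 and 7111, with -0.63 ± 0.20 and 1.17 ± 0.20. For Gadd45g and Ctgf the swimming array was the lowest of the 3. Cyr61, a relative of Ctgf in the same protein family, had 1899, 2186 and 1549 and ratios of 0.16 ± 0.20 and -0.19 ± 0.20, so the pair was not alike.

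Nfil3, a basic leucine zipper repressor tied to the circadian clock, had signals of 2777, 1798 and 2770.5. The swimming array was the lowest and the others were nearly equal, with ratios of -0.67 ± 0.20 and 0.93 ± 0.20, and its second probe gave -0.52 and 0.99. Rgs2, a regulator of G protein signalling, had 1510.3, 2098 and 2396, with 0.43 ± 0.20 and 0.50 ± 0.20. Its dim second probe (14.1, 22.1 and 13.1) had the opposite sign for Chlorella, -0.45 ± 0.26. Trib1, a pseudokinase, had 1355, 1158 and 1136, and ratios of -0.27 ± 0.20 and 0.28 ± 0.20.

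Myc, the growth-promoting transcription factor, was level. Its brightest probe had 10 spots per array, with mean signals of 197, 207 and 195 and ratios of 0.03 ± 0.20 and 0.23 ± 0.20. The other probes gave -0.05 and 0.18, and, at signals of 30.5 or less, -0.23 and -0.41. The 11 genes outside the families had a median of 0.93 for Chlorella (0.08 for all genes), with 10 of 11 above 0 (9363 of 15611 among all genes). Of the 11, 5 were at least 2-fold higher, against 1.40% of all genes. For swimming their median was 0.03 (-0.04 for all genes), and 1 of 11 was at least 2-fold higher, against 5.14%.

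**Figure D3:**
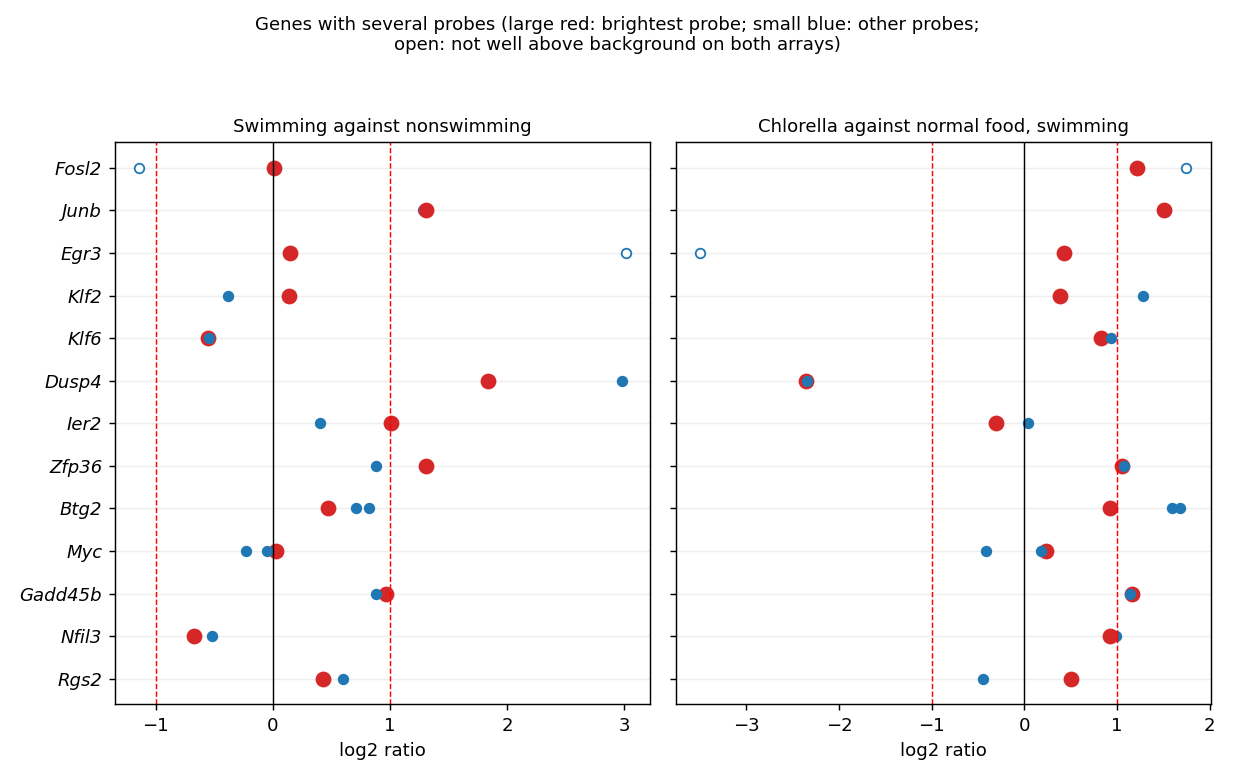
Log2 ratios (x axis) of all probes of the 13 genes with several probes (y axis), for swimming against nonswimming and for Chlorella against normal food in swimming mice. Red points are the brightest probe, blue points the others, open points probes not well above background on both arrays, and dashed lines 2-fold. The probes of Junb, Klf6, Gadd45b and Nfil3 lie within 0.15 of each other, while those of Btg2, Klf2 and Rgs2 are spread by 0.75 to 0.95 in the Chlorella comparison.

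Probes of 1 gene give the closest check that the arrays hold. In Chlorella against normal food, 11 genes had several probes well above background on both arrays, and the spread of their log2 ratios ran from 0.01 to 0.95 with a median of 0.11. In swimming against nonswimming it ran from 0.01 to 1.14, with a median of 0.26. Signs were opposite for 3 of 11 genes in the former (Ier2, Myc and Rgs2) and for 2 of 11 in the latter (Klf2 and Myc), and none of these was 2-fold apart on its brightest probe except Ier2 for swimming, where its probes had the same sign. This spread holds the difference between probes and no difference between mice.

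The genes that carry signals to the immediate-early genes were not 2-fold apart in the first 2 comparisons. From a list of 34 MAP kinases, their kinases, SRF and its partners, CREB and its coactivators, STAT3 and NF-kB, 31 were measured on both arrays in each of the first 2 comparisons. None was at least 2-fold apart, and the medians were -0.15 for swimming and 0.14 for Chlorella, near those of all genes (-0.04 and 0.08). Of all genes, 5.14% were higher and 1.08% lower by that size for swimming, and 1.40% higher and 4.86% lower for Chlorella. At such shares few of 31 genes would be counted, so the absence of a count is no mark of this list. Those farthest from 0 were the kinase genes Rps6ka5 (-0.90 ± 0.22) and Map2k1 (-0.68 ± 0.20) for swimming, and the SRF partner Elk4 (0.81 ± 0.26, at signals of 13.8 and 19.4) and Mapk8 (-0.71 ± 0.20) for Chlorella. Stat3 followed, at 0.65 ± 0.20. Elk4 was 1.37 ± 0.33 higher in Chlorella with swimming against nonswimming, the only one of the 31 past 2-fold there, against 2.10% higher among all genes. Mapk8 (-1.0 ± 0.20) lay at the limit there without being counted. These are messenger RNA levels, and the activity of the kinases was not measured.

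Relatives of the same families that are not on the list of immediate-early genes were also measured. In Chlorella against normal food 49 were measured, and their median was 0.31. In swimming against nonswimming 50 were measured, and their median was -0.07. Batf, an AP-1 factor of lymphocytes, was lower on the Chlorella array (-1.27 ± 0.28, signals of 37.8 and 12.7). Klf1, the erythroid factor, was 3.43 ± 0.22 higher on the log2 scale on the swimming array, beside the other erythroid markers. The 9 other Klf relatives measured had a median of 0.38 for Chlorella, with 7 of 9 above 0. They were led by Klf15 (0.87 ± 0.20) and Klf9 (0.76 ± 0.20), both known glucocorticoid targets. The 16 Dusp relatives had a median of 0.31, led by Dusp8 (0.86 ± 0.20).

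**Figure D4:**
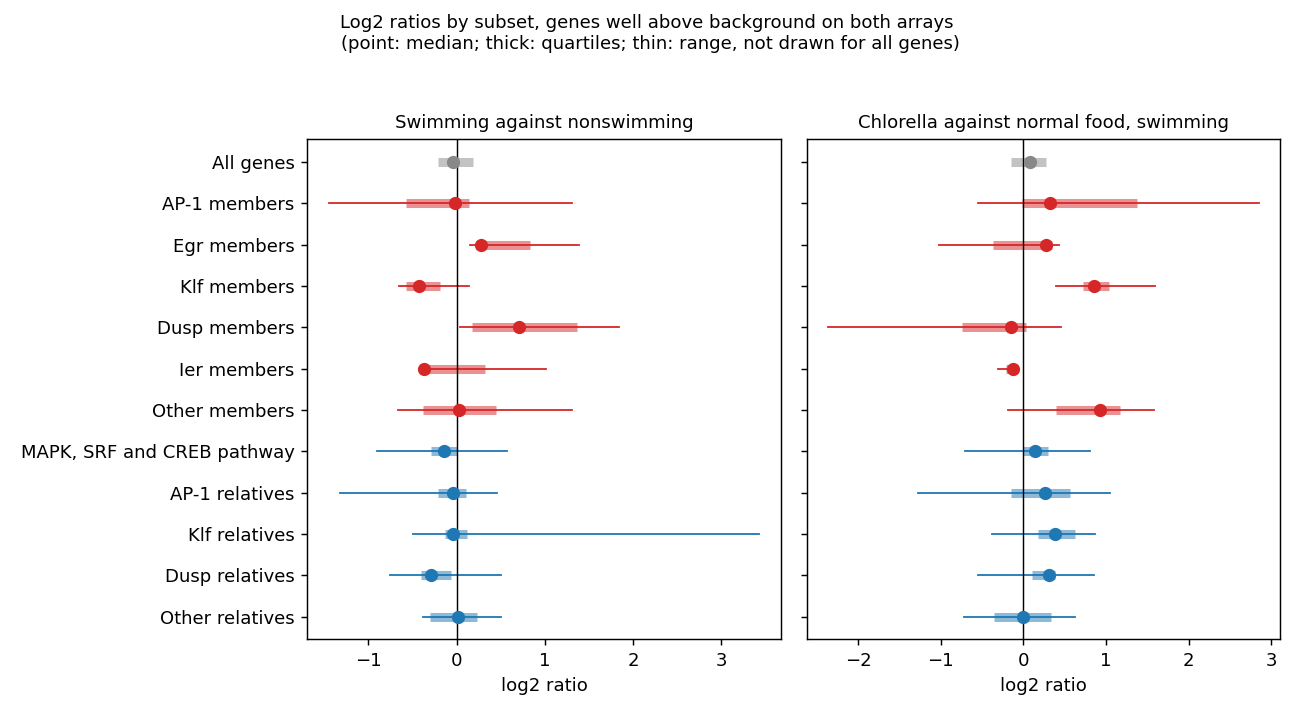
Log2 ratios (x axis) by subset (y axis) for swimming against nonswimming and for Chlorella against normal food in swimming mice, with the median as a point, the quartiles as a thick bar and the range as a thin line (not drawn for all genes). Red subsets are the immediate-early genes, blue subsets the pathway and the relatives, and grey is all genes. The Klf median is -0.43 in the first panel and 0.85 in the second, the Dusp median 0.71 and -0.15.

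Markers of other cell types differed between the arrays beside these genes. Of 10 measured neutrophil markers, all 10 exceeded 2-fold in swimming over nonswimming, with a median of 3.87, against 5.14% of all genes. With Chlorella against swimming on normal food, all 9 measured were under by 2-fold or more, with a median of -6.70, against 4.86% of all genes. The summed level of the 11 neutrophil genes was 16.7, 281 and 3.57 in units of the 75th percentile over the nonswimming, swimming and Chlorella arrays in turn, and Prtn3 and Mmp8 were not well above background on the Chlorella array. The sum of 10 B cell markers was 0.564, 6.33 and 0.374, where 7 of them, Cd79a, Ms4a1 and Pax5 included, were not well above background on the Chlorella array. The sum of 9 erythroid markers was 128, 443 and 130. These lists were highest on the array where 7 members were highest: Egr1, Dusp4, Dusp2, Ier2, Fos, Dusp6 and Cyr61. Of these, Dusp6 (0.04 ± 0.20) and Cyr61 (0.16 ± 0.20) were nearly level in swimming against nonswimming. The part of these cell types in the levels of the 7 genes was not tested.

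On the Chlorella array, where 21 members were highest, the neutrophil, B cell and macrophage sums were at their lowest. The macrophage list was 14.7, 12.9 and 8.59 over the same arrays, and the fibroblast list 617, 482 and 494. Keratinocyte markers were highest on the nonswimming array (7.88, 2.0 and 2.29), as were Fosb, Atf3, Ier3 and Ier5, and the adipocyte list was highest on the swimming array (390, 766 and 476). Muscle markers had a median of 0.34 for Chlorella, with 15 of 15 above 0 and none 2-fold apart, and sums of 7190, 6030 and 7820. The part of muscle and keratinocyte RNA in the levels of these genes was not tested.

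**Figure D5:**
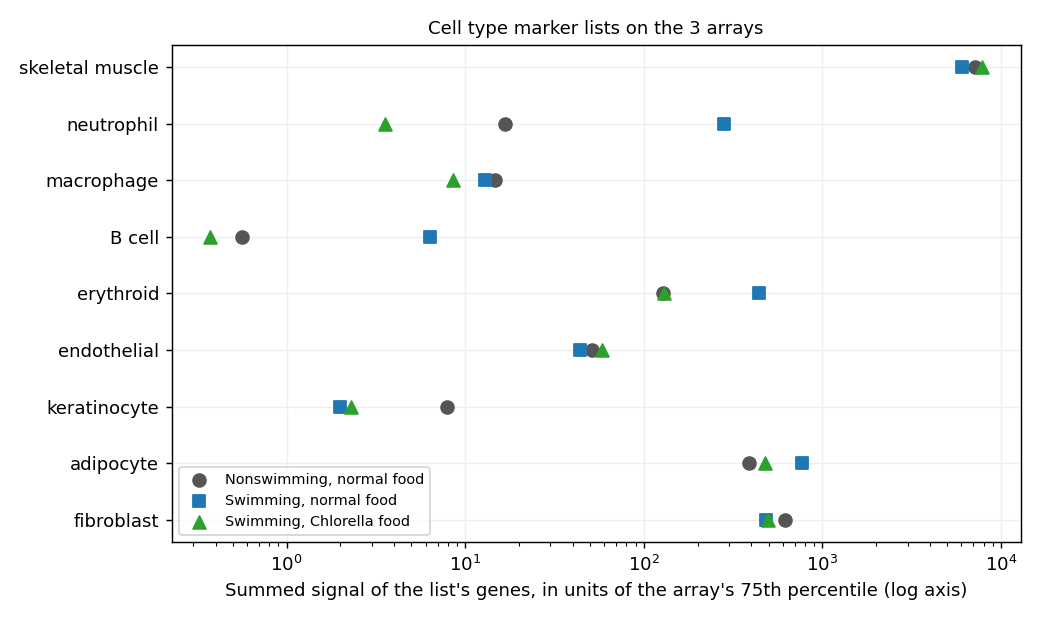
Summed signal of each cell type marker list (x axis, log scale, in units of the array's 75th percentile) on the 3 arrays, 1 point per array, with the lists on the y axis. The neutrophil sum is 281 on the swimming array, 16.7 on the nonswimming and 3.57 on the Chlorella array, and the muscle sum lies between 6030 and 7820.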

How the data were processed

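Muscle RNA pooled from 10 mice per group was labelled with Cy3 and hybridised to 1 Agilent array per group, per the labels' protocols. All 3 arrays lay on 1 slide, per the file headers. The deposited scanner files hold intensity values (processed signal, its error, spot and background brightness) and flags, which the submitters' processing notes credit to version 9.5 of Agilent Feature Extraction. The authors' value table holds log2 values whose differences between arrays correlated with the scanner differences (r of 0.71 to 0.82 over 13683 probes). The value each probe was centred on stays unknown.

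Control and outlier-flagged spots were left out, log2 signals of spots of 1 probe averaged, and each array divided by its 75th percentile. Genes are the array's gene names, by the probe with the highest mean. Alternatives used limma 3.58.1 in R 4.3.3. The steps were tested on simulated data. For a probe at background on 1 array, a bound divides the bright array's normalized signal by that of the dimmest detected probe there, or by the probe's own where that is higher. Of the pathway, family and marker lists, up to 3 genes farthest from 0 per list in either of the first 2 comparisons could be named, with all members. Members and lists were chosen with earlier results of these data known. RefSeq tables gave names and promoters. Alternative scalings, background correction, filters, probe rules, thresholds and the authors' table were tried, and 3 more were chosen after seeing the data. A result among the family relatives is not reported here.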

Additional observations from a re-analysis of the deposited data

How the results depend on the processing

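With 1 array per group no array could be left out. No paired analysis was possible because each group has 1 sample. The 3 alternatives chosen after seeing the data were these: every measured probe must pass, the Jund1 probe added, and genes counted at their bound. In swimming against nonswimming, genes at least 2-fold lower were 2 with median centring (1.79% of all genes) and with no filter on dim probes (4.59%), 0 with normexp (Fosb at -0.63, 0.266%) and 5 at 1.5-fold (4.43%), and genes at least 2-fold higher were 1 under the scanner error limit (3.19%). The median there was -0.12 with median centring, -0.05 with the mean over probes and -0.01 with the authors' value table, so its sign is not settled. In Chlorella against normal food, lower genes were 1 with median centring (4.09% of all genes) and 1 under the scanner error limit (2.82%), and higher genes 5 under that limit (0.416%). In Chlorella with swimming against nonswimming, lower genes were 0 with normexp (0.369%) and 2 at 1.5-fold (5.79%), and higher genes 4 under the scanner error limit (0.725%). In the other settings run, counts stayed within 1.5 times, and no member called 2-fold apart had the opposite sign in the 7 settings of scaling, background, probe and source. The number of arrays limits the precision.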
